A study of Drosophila melanogaster with 10 samples.

Results

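The cytosolic ribosomal protein genes of Drosophila melanogaster were examined in the RNA of S2 cells, a line grown in culture and derived from embryos. The genes were chosen by their symbols, as those that begin with RpL or RpS (an additional P marks the stalk proteins) and continue with a number, with upper and lower case kept apart. This gave 92 genes of 15240, with 196 of the 30551 transcript entries. The series comprises 10 samples, which form 5 groups with 2 replicates each. Of these, 4 groups are chromatin immunoprecipitation libraries and their inputs from cells with wild-type or polymerization-defective Polyhomeotic, and the fifth is the S2 RNA analysed here. The S2 RNA came from cells labelled WT, with no transgene named, that were kept for 3 days with copper sulphate at 0.5 mM, and ribosomal RNA was depleted from total RNA before sequencing. The other 8 samples were not analysed here. There is 1 group of 2 libraries, so no condition could be compared and no test across samples exists.

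Each cytosolic ribosome is built from a large and a small subunit, and each subunit joins ribosomal RNA with many different proteins, most of them present as a single molecule per ribosome. Cells in culture need these proteins in large and roughly matched amounts, and their mRNAs are among the most abundant of any dividing cell. Several ribosomal proteins of flies are encoded by more than 1 gene. In such sets a copy that is expressed broadly is often accompanied by a copy that is used mainly in the testis or the female germline.

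Levels were given as RPKM, the number of reads on a transcript scaled by its length in kb and by the reads of its library, and the level of a gene is the median over its transcripts. The libraries differ in depth, with 37054213 reads in replicate 1 and 9495835 reads in replicate 2 as recovered from the steps in the values. A transcript of 1 kb with 3 reads would have 0.081 RPKM in the deeper and 0.316 RPKM in the shallower library. Read numbers of single genes are minimum values, since a factor shared by the reads and the length of a transcript cannot be seen. Errors are the SD over the 2 replicates, which the study describes as biological, and intervals and limits from reads cover counting error only.

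The label of the cells was checked against markers of blood cells, the lineage that S2 cells resemble. Of 8 plasmatocyte markers with values, 3 had a mean of at least 5 RPKM, or 37.5% against 29.5% of all genes, so the list as a whole was near the background. The 3 were the scavenger receptor gene crq at 30.5 ± 2.24 RPKM (SD, n = 2), the phagocytosis receptor gene eater at 12.4 ± 0.891 RPKM and the GATA factor gene srp at 5.75 ± 0.0422 RPKM. The markers Hml, at 1.18 ± 0.0543 RPKM, and Pxn, at 0.398 ± 0.185 RPKM, were low, and He was listed at 0.0401 RPKM in replicate 1 and at 0 in replicate 2.

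Of the 92 ribosomal protein genes, 85 had a mean of at least 5 RPKM, against 29.5% of all genes. At a threshold of 100 RPKM there were 80 of them, against 1.48% of all genes. The median over the 92 genes was 386 RPKM in replicate 1 and 559 in replicate 2, where the medians over all genes were 0.973 and 0.839 RPKM. Summed over genes, the ribosomal protein genes held 29.1% of the RPKM of protein-coding genes in replicate 1 and 34.99% in replicate 2. With non-coding genes in the sum the shares were 12.6% and 13.6%. The most-read transcripts of the 92 genes carried at least 969556 reads of replicate 1 and 352497 reads of replicate 2, which is 2.62% and 3.71% of the libraries.

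The genes fell into 78 main copies and 14 other copies. A main copy is a gene without a listed paralogue or the copy set as the broadly expressed one in a list of 14 pairs, and the other copies are its paralogues. Every main copy was above 100 RPKM on average, from 111 to 2027 RPKM. The other copies ranged from 0 to 166 RPKM, and 2 of the 14 had a mean of at least 100 RPKM. The list was not computed from these levels, but it was drawn up with earlier results of these data known, so a higher level of the main copies is given as a description.

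**Figure D1:**
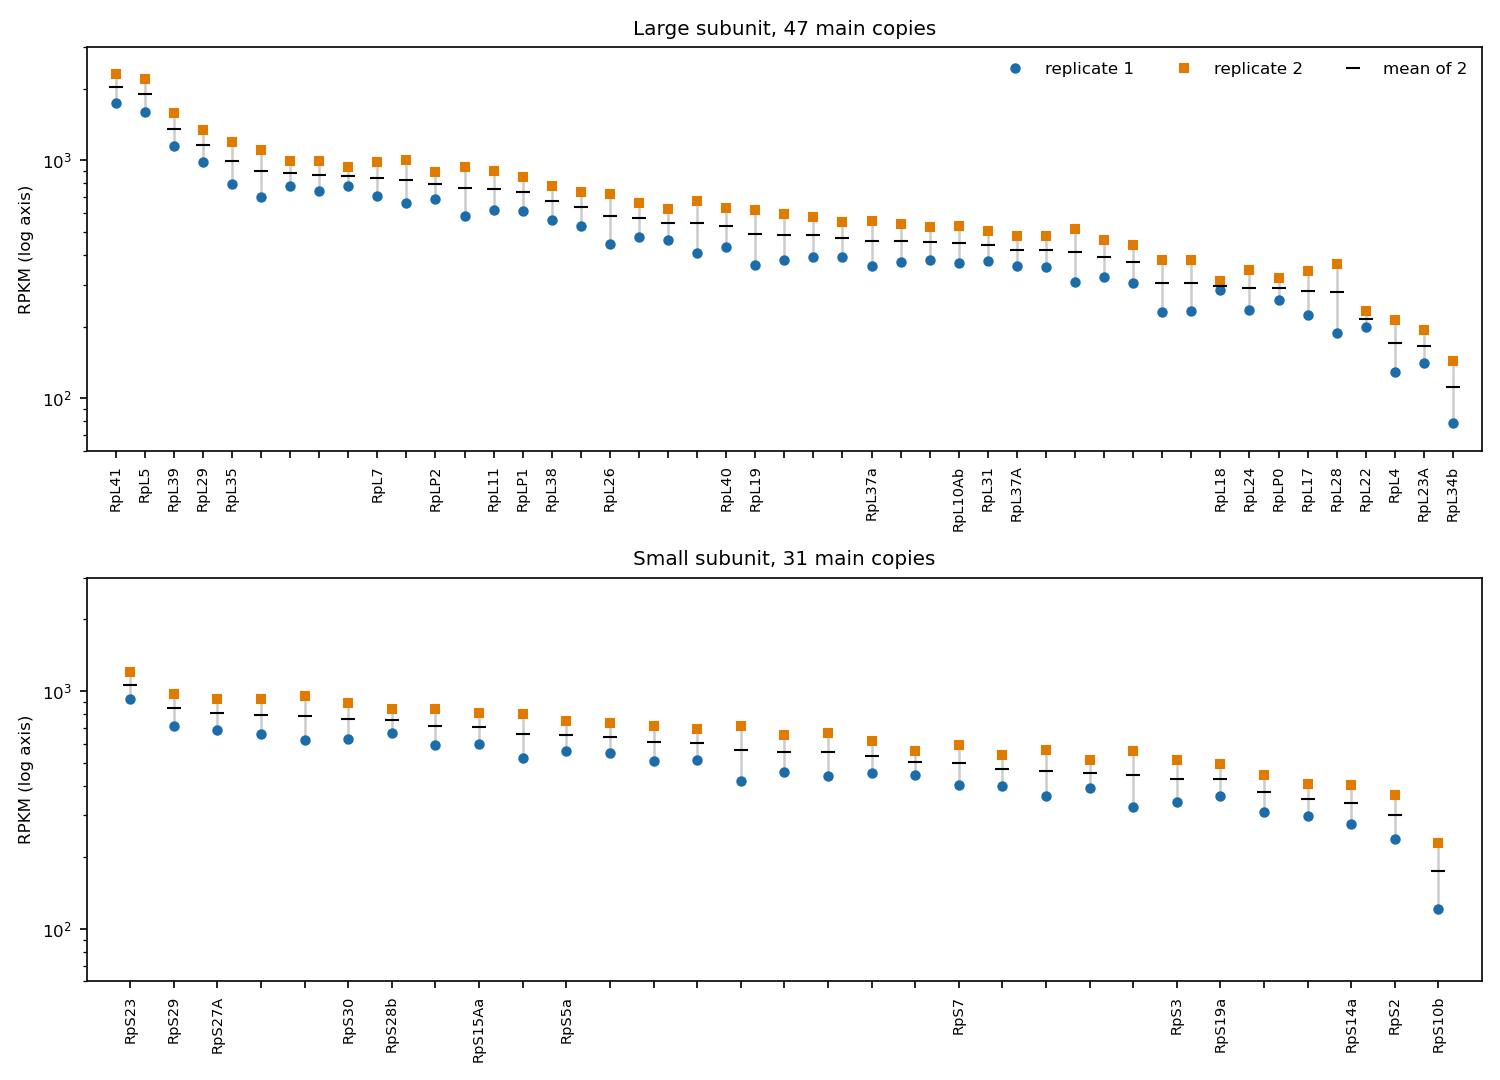
RPKM on a log axis of the 78 main copies, 47 of the large and 31 of the small subunit, ordered by mean; circles are replicate 1, squares replicate 2 and dashes the mean of 2, and the genes named in the text are labelled. The square lies above the circle in each of the 78 genes, and means run from 111 RPKM for RpL34b to 2027 RPKM for RpL41.

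The highest member was RpL41, which encodes a very small basic protein of the large subunit. Its level was 1742 RPKM in replicate 1 and 2312 in replicate 2. RpL5 followed at 1603 and 2207 RPKM. RpL39, a small protein at the exit of the peptide tunnel, had 1148 and 1576 RPKM. These genes held ranks 1, 2 and 3 in both libraries. RpL29 had rank 4 in both, at 980 and 1341 RPKM. RpS23, which encodes a protein of the decoding centre, had rank 5 in both and was the highest gene of the small subunit, at 924 and 1197 RPKM. These ranks are those of the median over transcripts. By the highest transcript, RpS29 lay above RpS23 in both libraries, at 937 and 1288 RPKM, and RpL5, at 2330 RPKM, lay above RpL41 in replicate 2.

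At the lower end of the main copies, RpL34b had 78.7 RPKM in replicate 1 and 144 in replicate 2. RpL23A, which contacts the signal recognition particle at the tunnel exit, had 140 and 193 RPKM. RpL4, which lines the tunnel, had 129 and 212 RPKM. RpL34b was the lowest main copy in both libraries, while RpL4 and RpL23A exchanged their order. Also low were RpS10b at 121 and 229 RPKM, RpL22 at 199 and 232 RPKM, and RpL28 at 189 and 368 RPKM. RpL17 had 224 and 342 RPKM, RpLP0 259 and 322 RPKM, RpL24 236 and 347 RPKM, and RpL18 284 and 310 RPKM. The highest main copy exceeded the lowest 22.1-fold in replicate 1 and 16.1-fold in replicate 2. Between the quartiles the main copies ran from 328 to 620 RPKM in replicate 1 and from 484 to 881 RPKM in replicate 2.

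The order of the main copies was similar in the libraries, with a Spearman rho of 0.977 and a Pearson r of 0.982 on the log2 scale across 78 genes. This describes genes within the same 2 libraries and carries no p-value. Neighbours in the order often changed places, since of the 77 neighbouring pairs in replicate 1, 47 kept their order in replicate 2. The SD of a main copy was between 6.22% and 45.6% of its mean, with a median of 24.1%. It includes the difference between the libraries that the main copies share, so it does not measure how well neighbours are told apart.

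The subunits were then compared. The 47 main copies of the large subunit had medians of 392 and 594 RPKM, and the 31 of the small subunit had medians of 450 and 666 RPKM. The middle portion of the large subunit genes, between the quartiles, ran from 307 to 641 RPKM in replicate 1, and that of the small subunit from 361 to 595 RPKM, so the ranges overlap. The small subunit was the narrower of the sets, with 7.64-fold between its highest and lowest gene in replicate 1 against 22.1-fold in the large subunit. Genes are not replicates, so no test was made.

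Proteins that work together on the ribosome did not have equal RNA levels. RpL5 and RpL11 bind 5S ribosomal RNA as a unit before it joins the large subunit. RpL11 had 622 RPKM in replicate 1 and 899 in replicate 2, so RpL5 was 2.58 and 2.45 times as high. The stalk, which recruits translation factors, is formed by RpLP0 with several molecules of RpLP1 and RpLP2. RpLP0 had 259 and 322 RPKM, RpLP1 had 615 and 856 RPKM, and RpLP2 had 688 and 897 RPKM, so the base of the stalk was the lowest in both libraries.

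RpL40 and RpS27A are made as fusions to ubiquitin, which is cut off after translation. RpL40 had 433 RPKM in replicate 1 and 629 in replicate 2, and RpS27A had 683 and 926 RPKM. RpS27A was thus 1.58 and 1.47 times as high as RpL40. Among 9 proteins around the exit of the peptide tunnel, levels in replicate 1 ran from 140 RPKM for RpL23A to 1148 RPKM for RpL39, an 8.19-fold range that was 8.18-fold in replicate 2. By the median over transcripts RpL35 was the next highest of them, at 793 and 1190 RPKM, and RpL19, RpL26, RpL31 and RpL38 lay between 364 and 561 RPKM in replicate 1.

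Around the decoding site and the mRNA entry channel, RpS23 was the highest, and RpS30 followed at 628 and 890 RPKM. RpS3, which helps to unwind mRNA at the entry, had 341 and 514 RPKM, and RpS2 had 239 and 364 RPKM. This order was the same in both libraries. The gene sta encodes the small subunit protein SA under another symbol and is not among the 92. It had 404 RPKM in replicate 1 and 648 in replicate 2, and Rack1, which sits on the small subunit, had 199 and 291 RPKM, so both were within the range of the main copies.

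The values of different transcripts of 1 gene were compared next. Of the 92 genes, 59 had at least 2 transcript entries. In 35 of them the reads recovered for the different transcripts of a gene were within 10% of each other, with a median ratio of 1.002 between the highest and the lowest. The RPKM of the same transcripts differed by up to 2.49-fold. RpL38 is the widest case, with transcripts of at least 1013 and 401 bases that carried 12048 and 11889 reads in replicate 1, and that were listed at 321 and 800 RPKM. In RpL37a, transcripts of at least 1251 and 588 bases with 10644 and 10618 reads were listed at 230 and 487 RPKM.

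**Figure D2:**
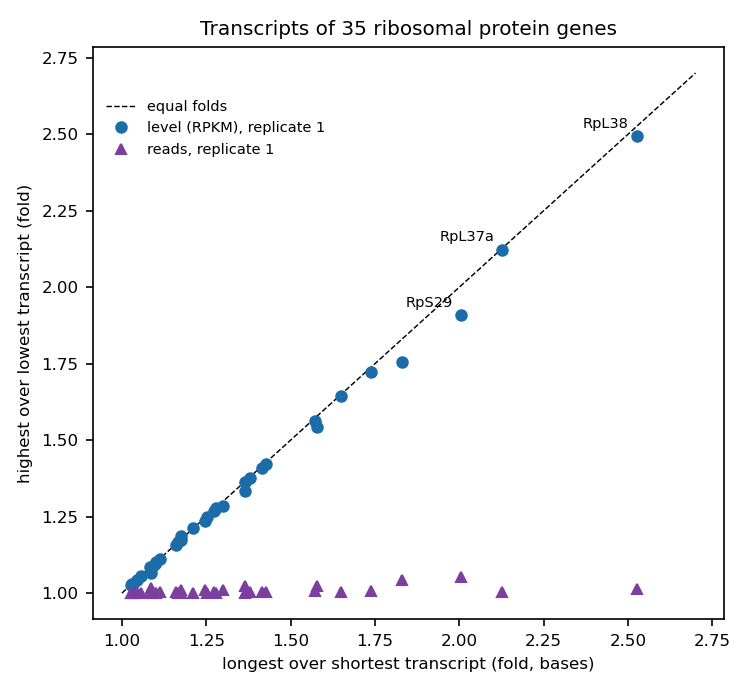
For the 35 genes whose transcripts had reads within 10% of each other, the fold between the highest and lowest transcript in RPKM (circles) and in reads (triangles), in replicate 1, against the fold between the longest and the shortest transcript. RPKM followed transcript length up to 2.49-fold in RpL38, while reads stayed within 1.05-fold.

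Of the other 24 genes with several transcripts, 21 had reads within 3% of a whole multiple of each other. A ratio as large as the 38.1 in RpL15 is within 3% of some whole number whatever its value. Recovered reads can fall short of the true ones by a whole factor, so the 21 genes may belong with the 35. The remaining 3 did not. Among these, the lowest and the highest transcript had 10236 and 13248 reads in RpS7, and 16048 and 17701 reads in RpL35. In the 35 genes the RPKM values thus gave no separate measure of each transcript. With the highest transcript of each gene in place of the median, RpL38 moved from rank 25 to rank 8 among the 92 genes and RpL37a from rank 49 to rank 34. The largest move was the 17 ranks of RpL38. Across the 78 main copies the orders had a Spearman rho of 0.977, and 4 of the 5 highest genes were shared.

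The other copies of ribosomal proteins were then compared with their main copies. Each pair was read in the same library, so the ratio within a library does not depend on its size. The main copy was higher in both libraries in each of the 14 pairs. Ratios that could be computed ran from 2.03 for RpS14a over RpS14b to 10807 for RpL10Ab over RpL10Aa, the latter from 1 read of RpL10Aa.

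**Figure D3:**
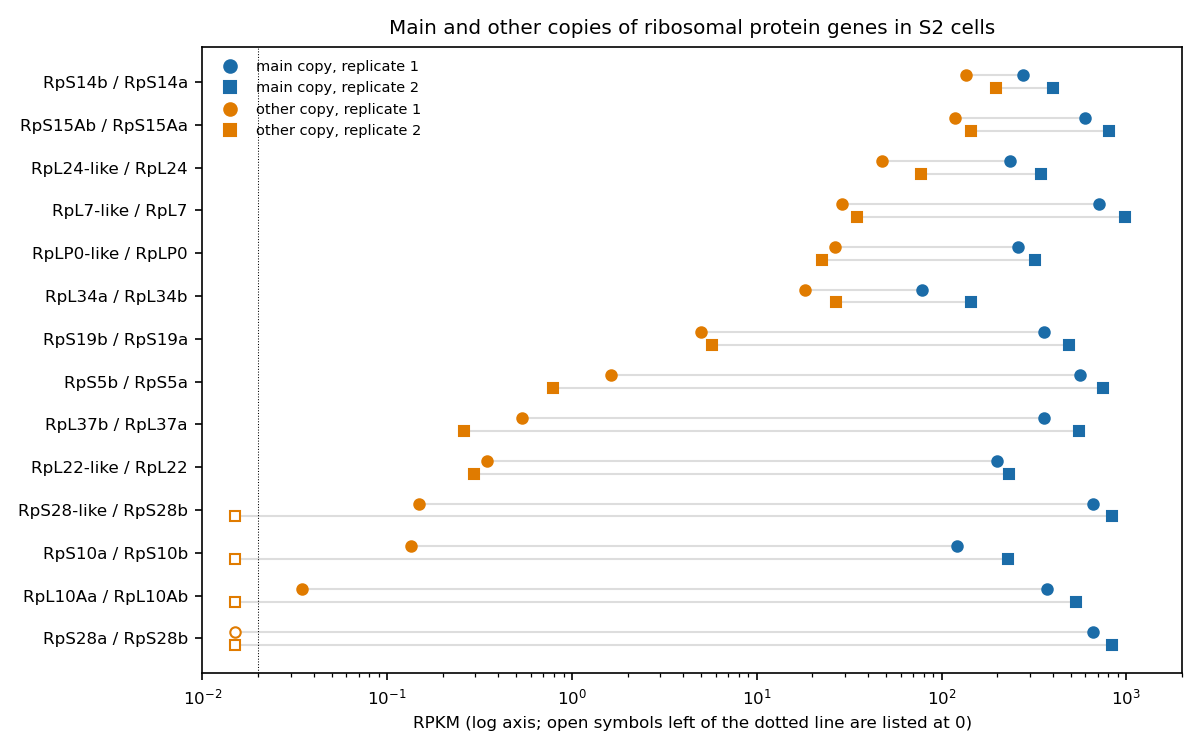
RPKM on a log axis of 14 other copies (orange) and their main copies (blue), with circles for replicate 1, squares for replicate 2 and a line joining the copies in a library; open symbols are listed at 0. The blue symbols lie between 78.7 and 983 RPKM, while the orange ones spread from 0 to 198 RPKM.

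The closest pair was RpS14a and RpS14b, tandem genes for the same small subunit protein that are next to each other in the name table. RpS14a had 275 RPKM in replicate 1 and 401 in replicate 2, and RpS14b had 135 and 198 RPKM. RpS14a was 2.04 and 2.03 times as high, and 32.9% and 33.05% of the summed level of the pair came from RpS14b. By reads of the most-read transcripts, RpS14a was 2.52 and 2.50 times as high. The ratio was the most even of the 14 between the libraries, with a mean log2 ratio of 1.02 ± 0.01 (SD, n = 2). With the highest transcript of each gene in place of the median it was 1.22.

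RpS15Aa had 599 RPKM in replicate 1 and 806 in replicate 2, against 119 and 143 RPKM for RpS15Ab, a 5.04-fold and 5.62-fold difference. RpL34b had 78.7 and 144 RPKM against 18.3 and 26.8 RPKM for RpL34a, a 4.30-fold and 5.37-fold difference. Reads were thus listed for both copies of these pairs, with 15.1% to 18.9% of the summed level in the lower copy. The treatment of reads that align to more than 1 place is not given in the sources used here. Reads from near-identical copies such as RpS14a and RpS14b may have been split, dropped or counted for both, so these ratios are uncertain.

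The genes named RpL7-like, RpL24-like and RpLP0-like are relatives of ribosomal proteins whose yeast counterparts act in the assembly of the large subunit and are not part of the finished ribosome. RpL24-like had 47.4 RPKM in replicate 1 and 77.7 in replicate 2, which is 4.97-fold and 4.47-fold below RpL24. RpL7-like had 28.9 and 34.8 RPKM, 24.5-fold and 28.3-fold below RpL7. RpLP0-like had 26.6 and 22.6 RPKM, 9.74-fold and 14.2-fold below RpLP0. The 3 genes were below each of the 78 main copies in both libraries. Their means ran from 24.6 to 62.5 RPKM. A list of 12 ribosome biogenesis genes ran from 6.91 to 68.1 RPKM, with a median of 16.4 RPKM. The top of that list was Nlp alone. The next gene, nop5, had 42.7 RPKM, which is below RpL24-like.

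RpS19b and RpS5b are copies known for their use in the germline. RpS19b had 4.97 RPKM in replicate 1 and 5.72 in replicate 2, from at least 122 and 36 reads, while RpS19a had 360 and 492 RPKM. The main copy was 72.5-fold and 85.9-fold higher. RpS5b had 1.63 and 0.788 RPKM, with 57 and 7 reads or more, against 561 and 744 RPKM for RpS5a, a 345-fold and 945-fold difference. RpS5b was thus above the limit that 3 reads set in both libraries, and its share of the pair was 0.289% and 0.106%.

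RpL22-like, a copy known from the testis, had 0.347 RPKM in replicate 1 and 0.294 in replicate 2, with at least 16 and 3 reads. RpL22 was 572-fold higher in replicate 1. In replicate 2 it was 790-fold higher, with a 95% counting interval from 270 to 3832. That interval is approximate, since it applies the 3 reads of the most-read entry to the median of entries at 0.269 and 0.320 RPKM. RpL37b, also known from the testis, had 0.536 and 0.261 RPKM from at least 8 reads and 1 read. RpL37a was 669-fold higher in replicate 1 and 2130-fold higher in replicate 2, where 1 read leaves an interval from 382 to 84138. RpL37a and RpL37b should not be confused with RpL37A, a different protein of the large subunit whose symbol differs in case and which had 359 and 481 RPKM.

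The 4 remaining copies were at or near 0. RpS10a had 0.134 RPKM in replicate 1, from at least 3 reads, and was listed at 0 in replicate 2. RpS10b was 902-fold higher in replicate 1, with an interval from 309 to 4373, and at least 438-fold higher in replicate 2 by the limit of 3 reads. RpS28-like had 0.148 RPKM in replicate 1, from 2 or more reads, and 0 in the other library, and RpL10Aa had 0.0344 RPKM from at least 1 read and 0. RpL10Ab, the main copy of RpL10Aa, had 372 and 531 RPKM. It was 10807-fold higher in replicate 1, with an interval from 1940 to 426843, and at least 1320-fold higher in replicate 2. RpS28b, the main copy of RpS28-like, had 664 and 840 RPKM. It was 4488-fold higher in replicate 1, with an interval from 1242 to 37055, and at least 971-fold higher in replicate 2. These ratios are bounded by the depth of the libraries. RpS28a was listed at 0 in both libraries, so no fold to RpS28b is given.

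Germline and gonad markers were read beside these copies. Of 6 germline markers, aub had 5.15 RPKM in replicate 1 and 4.96 in replicate 2, and the other 5 had means from 0.0877 RPKM for vas to 0.677 RPKM for osk. Of 11 testis markers, 4 were listed at 0 in both libraries and 9 had a mean under 1 RPKM. The exceptions were mia, at 3.76 and 3.38 RPKM, and topi, at 22.8 and 7.74 RPKM. Low levels were common, since 7548 of all 15240 genes had a mean of at least 1 RPKM and 1714 were at 0 in both libraries. Of 8 ovary markers, Yp3 had the highest mean, at 0.627 RPKM, and Yp2 was listed at 0 in both. Summed over the list, germline markers had 7.78 and 6.67 RPKM, testis markers 26.8 and 11.4 RPKM and ovary markers 1.78 and 1.90 RPKM. Most of the germline sum was aub and most of the testis sum was topi in both libraries. The part of the markers in the levels of the copies was not tested. RNA was read from whole cultures, so a trace such as that of RpS5b can come from few cells or from little RNA in each cell, and these cannot be told apart. Whether reads of main copies such as RpS5a were counted for such traces was not tested. The treatment of reads with several alignments is not given in the sources used here.

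The ribosomal protein genes also differed between the replicates as a set. Each of the 78 main copies was higher in replicate 2, with a median log2 difference of 0.50 on the scale of log2(RPKM + 1). Over the 4493 genes that averaged 5 RPKM or more, 58.2% were higher in replicate 2, and the median difference was 0.05. A log2 difference of at least 0.3 was found in 75 of the 78 main copies, against 14.1% of these genes and against 62.3% of the 175 protein-coding genes that averaged 100 RPKM or more. The 175 include the main copies. The 95 among them that the symbol rule did not take, which include sta and Rack1, were higher in replicate 2 in 75 cases, and 33 had a difference of at least 0.3. Replicate 2 was also scaled by a factor of 0.965, so that the median gene of the 4493 had equal levels in the replicates. This fixes the split of the 4493 genes in advance, and 2246 of them were then higher in replicate 2. Of the 85 ribosomal protein genes at 5 RPKM or more, 84 remained higher in replicate 2.

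**Figure D4:**
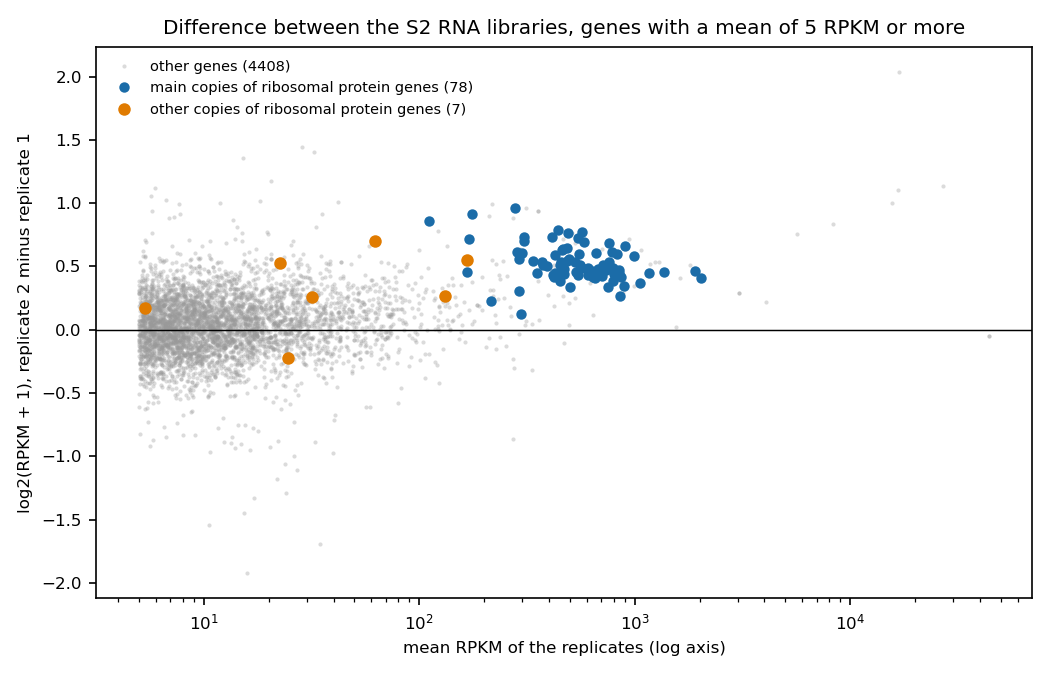
Difference in log2(RPKM + 1), replicate 2 minus replicate 1, against the mean RPKM on a log axis for the 4493 genes that averaged 5 RPKM or more; grey points are other genes, blue points main copies and orange points other copies. The 78 blue points lie above 0, from 0.13 to 0.96, and 6 of the 7 orange points do.

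The recovered reads were put to a two-sided exact binomial test, adjusted over 11065 genes by the Benjamini-Hochberg method, which compares the 2 libraries with each other. It called 850 genes, or 7.68%, higher in replicate 2 and 497 genes, or 4.49%, higher in replicate 1. Of the 88 ribosomal protein genes tested, 83 were called higher in replicate 2 and 0 higher in replicate 1. The 83 were the 78 main copies and 5 of the 10 other copies tested. Of the 95 protein-coding genes outside the symbol rule that averaged at least 100 RPKM, 57 or 60% were called higher in replicate 2 and 12 higher in replicate 1. The test sees counting error only and does not measure the spread between cultures. Since levels are relative to the size of the library, a larger share of these genes means a smaller share of others.

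The size of the difference varied within the main copies. RpL28 had the largest, with 189 RPKM against 368 RPKM in replicate 2, and its log2 difference was 0.96. RpS10b followed at 0.92 and RpL34b at 0.86. The smallest was that of RpL18, at 284 and 310 RPKM, a difference of 0.13 (adjusted p = 0.0043, exact binomial test). The difference was 0.51 at the median for the large subunit and 0.49 for the small subunit. It had a Pearson r of 0.02 with the log2 of the recovered transcript length and of -0.32 with the log2 of the level, across 78 genes that share the same libraries. Main copies whose recovered length was under 700 bases had a median difference of 0.47 (29 genes) and those of 1000 bases or more had 0.48 (19 genes).

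Among the other copies the difference was uneven. RpL24-like, RpS14b and RpL34a had log2 differences of 0.70, 0.55 and 0.52, close to those of main copies. RpS15Ab had 0.27 and RpL7-like 0.26, with adjusted p-values of 7.87e-06 and 0.043 in the exact binomial test. RpLP0-like was the single gene of the 85 at 5 RPKM or more that was lower in replicate 2, at -0.23, with an adjusted p of 0.185. RpS19b, at 0.17, was not called either (adjusted p of 0.778, exact binomial test). RpS5b, at -0.56, was lower in replicate 2 but was not called (adjusted p = 0.271, exact binomial test).

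Mitochondrial ribosomal protein genes, whose products form the separate ribosome of that organelle, were compared because they encode a complex of similar make-up. The 73 genes had median levels of 9.41 RPKM in replicate 1 and 9.57 in replicate 2, with means from 2.27 to 22.6 RPKM, so none reached the lowest cytosolic main copy. They were higher in replicate 2 in 40 cases, with a median log2 difference of 0.02. Of the 67 that averaged 5 RPKM or more, 38 or 56.7% were higher, near the 58.2% of all genes at that level. Of the 73, 3 or 4.11% were called higher, against 7.68% of the 11065 genes tested at all levels. Of the 12 ribosome biogenesis genes, 11 or 91.7% were higher in replicate 2, but 2 were called, Nop17l and Fib, and the median difference was 0.08.

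Elongation factors and associated genes had a median log2 difference of 0.29. Of 8 genes on the list, 6 were called higher in replicate 2. Among the 95 protein-coding genes outside the symbol rule that averaged at least 100 RPKM, 60% were called. Of the 8, 6 averaged at least 100 RPKM themselves. Ef1alpha48D, the main gene for the factor that brings tRNA to the ribosome, had 1054 RPKM in replicate 1 and 1525 in replicate 2, and differed by 0.53 on the log2 scale. Its paralogue Ef1alpha100E had 0.602 and 0.365 RPKM. Ef2b, which moves the ribosome along the mRNA, had 617 and 670 RPKM, a difference of 0.12.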

How the data were processed

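RNA of 2 S2 cell samples was analysed. Per the labels, total RNA was depleted of ribosomal RNA before cDNA was prepared. The study used TopHat and release 5 of the fly genome for single-end reads. The deposited RPKM values are given by the authors per RefSeq transcript and replicate. Cufflinks and Cuffnorm are named for the study's own FPKM comparison, and the program that made these RPKM values is not given in the sources used here, nor is the treatment of reads with several alignments. Names were looked up in a table of release 6, where 90 of 92 symbols matched, and its coordinates were not used. No sequences are shown, and 1 item is not reported here.

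The level of a gene was the median RPKM over its transcripts. Differences used log2(RPKM + 1). The pseudocount of 1 makes those of low genes too small. The library sizes were values for which ratios of the columns were ratios of whole numbers and most transcript lengths came out whole. Lengths were whole in 67.7% of the 8171 entries used for this, against 33.8% at double the size. Whole reads then fitted 99.9% of 23661 entries above 0 in both libraries. The most-read transcript of each gene was tested with an exact two-sided binomial test and Benjamini-Hochberg adjustment, with calls at an adjusted p under 0.05. Read recovery and the binomial test were run separately on simulated Poisson counts, without spread between cultures. The simulated test used the true counts and library sizes, so recovery followed by the test was not checked. Limits were set at 3 reads, and intervals are exact Poisson intervals at 95%, taken at the minimum reads. Where a copy was at 0 in both libraries, no fold is given, and its log2 ratio enters the median over the 14 pairs through the pseudocount alone.

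Named genes were both copies of each pair, the 5 highest and 5 lowest members outside the pairs, the 3 largest and 3 lowest replicate differences, and members of fixed role lists. Genes of other lists were counted, with a few named. RpS7, RpS29 and RpL37A were also named after their values were seen. Members, pairs and lists were chosen with earlier results of these data known. Of the listed symbols, sop, oho23B and Qm are other names of members. No values were found under the symbols EF2, Nph, Non1 and NimC1. Alternatives were a pseudocount of 0.1, other summaries over transcripts, other thresholds, scaling, leaving out each replicate, and protein-coding genes. Analyses used Python 3.11.15, pandas 2.3.3, NumPy 2.4.6 and SciPy 1.17.1.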

Additional observations from a re-analysis of the deposited data

How the results depend on the processing

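The median log2 ratio of main to other copies was 6.68 over 14 pairs, and 7.64 with a pseudocount of 0.1, because the low copies are near 0. Over the 13 pairs without RpS28a, an alternative chosen after seeing the data, it was 6.06. The share of ribosomal protein genes in the summed RPKM was 13.1% as the mean of the replicates, 11.97% with the highest transcript of each gene and 32.0% among protein-coding genes. No tried alternative reversed the order of a pair. Without replicate 1 or replicate 2, the level of the ribosomal protein genes ranged from 386 to 559 RPKM, the number at 5 RPKM or more from 84 to 85, the share from 12.6% to 13.6% and the median ratio from 6.33 to 6.85. Scaling replicate 2 by 0.965 gave a median replicate difference of 0.44 against 0.49. It gave 81 binomial calls against 83, where over all genes there were 647 against 850. No paired analysis was possible because values were analysed for 1 group only. Levels of copies under 3 reads are limited by depth, replicate 2 being 3.90-fold shallower.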
